A study of Drosophila melanogaster with 2 samples.

Results

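The tRNA genes of *Drosophila melanogaster* were taken from the Ensembl annotation of the dm6 assembly as all genes on the assembled chromosome arms whose symbol starts with "tRNA:". There were 295 of them among 18164 annotated genes, transposable elements left out. Of the 295, 290 are annotated as tRNA genes and 5 as tRNA pseudogenes. Each gene was matched to the strongest binding region whose summit, the base of highest signal, lay within 500 bp of the gene start.

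Binding was measured by ChIP-seq of CG31388, a fly protein of the ZAD zinc finger family, in whole embryos aged 0 to 16 h, male and female pooled. All libraries came from the line CG31388-GFP, a transgenic strain that stably makes CG31388 with GFP at its C-terminal end, and the precipitation used an anti-GFP antibody. The 2 libraries, biological replicates 2 and 4, form 1 group, so no comparison between conditions exists, and embryos without the tag were not analysed here. Whole embryos mix all cell types of these stages, so a region can stem from any of them.

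tRNA genes are transcribed by RNA polymerase III. Their promoter lies inside the transcribed sequence: the A box and the B box are bound by TFIIIC, which then places TFIIIB just upstream of the start, and a run of T residues after the gene ends transcription. The genes are short, exist in many identical copies and often stand close together, so that a summit near one tRNA gene can also lie near another, or near a protein-coding promoter.

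The sequences below belong to loci with some of the strongest regions. They are 2 loci with a reproducible peak, 2 genes with a strong region far from any coding start, and 1 gene whose region differed between the libraries. All are from the RefSeq FASTA of the dm6 assembly. Gene sequences are given on the strand of the gene, with the letters that match a B box search pattern, GTTCNANNC, in capitals. *tRNA:Tyr-GTA-1-8* lies at 3R:8669081-8669174 on the minus strand, and its locus also holds *tRNA:Tyr-GTA-1-7* at 3R:8668612-8668705 and *tRNA:Tyr-GTA-1-6* at 3R:8668116-8668208, both on the minus strand. *tRNA:Asp-GTC-1-4* at 2L:8541552-8541623, minus strand, and *tRNA:Asp-GTC-1-5* at 2L:8541761-8541832, plus strand, have the same sequence, printed once. *tRNA:Gln-TTG-2-1* lies at X:3427452-3427523 on the minus strand, *tRNA:Pro-AGG-1-2* at 2L:14598859-14598930 on the plus strand, and *tRNA:Ala-AGC-2-8*, which lacks a match to the pattern, at 3R:17646683-17646755 on the minus strand.
Tyr-GTA-1-8: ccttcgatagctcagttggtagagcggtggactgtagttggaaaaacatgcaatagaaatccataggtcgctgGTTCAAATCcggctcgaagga
Tyr-GTA-1-7: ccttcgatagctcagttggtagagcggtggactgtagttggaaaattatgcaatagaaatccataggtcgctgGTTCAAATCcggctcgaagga
Tyr-GTA-1-6: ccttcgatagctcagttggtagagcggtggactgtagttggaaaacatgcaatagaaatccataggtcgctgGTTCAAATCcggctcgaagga
Asp-GTC-1-4 and Asp-GTC-1-5: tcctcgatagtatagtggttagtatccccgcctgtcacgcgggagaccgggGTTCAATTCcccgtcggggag
Gln-TTG-2-1: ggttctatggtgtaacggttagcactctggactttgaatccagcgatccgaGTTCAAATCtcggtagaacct
Pro-AGG-1-2: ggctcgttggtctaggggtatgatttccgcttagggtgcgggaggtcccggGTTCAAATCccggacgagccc
Ala-AGC-2-8: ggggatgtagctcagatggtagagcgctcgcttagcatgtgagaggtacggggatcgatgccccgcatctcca
The 3 tyrosine genes shared their first 45 bases and at least their last 47, and differed between them. *tRNA:Tyr-GTA-1-6* is 93 bases long, and the other two are 94 bases long.

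The summits of these loci lay outside the genes. The next sequences are the 61 bases centred on each summit, on the plus strand, with the middle 11 bases in capitals: 3R:8669340-8669400 for the tyrosine gene, 2L:8542015-8542075 for both aspartate genes, X:3427768-3427828 for the glutamine gene and 2L:14598555-14598615 for the proline gene.
Tyr-GTA-1-8 summit: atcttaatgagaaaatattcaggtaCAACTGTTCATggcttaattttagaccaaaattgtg
Asp-GTC-1-4 and Asp-GTC-1-5 summit: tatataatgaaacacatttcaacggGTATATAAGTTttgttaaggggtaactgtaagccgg
Gln-TTG-2-1 summit: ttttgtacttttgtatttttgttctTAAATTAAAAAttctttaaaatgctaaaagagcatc
Pro-AGG-1-2 summit: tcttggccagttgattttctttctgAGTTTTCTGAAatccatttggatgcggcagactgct
G and C made up 29.5% of the tyrosine window, 34.4% of the aspartate window, 19.7% of the glutamine window and 42.6% of the proline window. Over 101 bases around the summit, the median G and C content was 38.6% at tRNA genes, against 40.6% over all candidate regions and 31.7% over the reproducible peaks.

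The share of tRNA genes with a candidate region was near that of all genes, and few tRNA genes had a region in the study's list of reproducible peaks. A candidate region, from the authors' pooled list of 28750 regions, was found at 117 of the 295 tRNA genes, or 39.7% (95% exact binomial interval 34.0 to 45.5%). The same was true of 39.5% of all annotated genes and of 43.1% of protein-coding genes. Within 1000 bp of the start, 173 of the 295 tRNA genes had a candidate. A reproducible peak, from the authors' list of 1872, was found at 4 tRNA genes, or 1.36% (0.371 to 3.44%), against 7.36% of all annotated genes and 8.9% of protein-coding genes. Positions within 500 bp of a reproducible summit made up 1.36% of the length of the arms, and those within 500 bp of a candidate summit 19.4%. Intervals here cover counting error only and treat each gene as independent. Neighbouring tRNA genes can share a region, so the intervals can be too narrow.

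The pooled list is labelled as peaks and background together, so a candidate outside the reproducible list can be background. Among the genes with a candidate, it was a reproducible peak in 4 of 117 tRNA genes, or 3.42% (0.939 to 8.52%), against 1241 of 6007 protein-coding genes, or 20.7% (19.6 to 21.7%). Small nucleolar RNA genes, another class of short non-coding genes, had a candidate in 77 of 269 cases, or 28.6% (23.3 to 34.4%), and a reproducible peak in 5. Small nuclear RNA genes had a candidate in 15 of 32 cases, or 46.9% (29.1 to 65.3%), and a reproducible peak in 2.

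The replicate lists, each of 30000 regions, gave like shares. A region of replicate 2 had its summit within 500 bp of 131 tRNA genes, or 44.4% (38.6 to 50.3%), against 38.9% of all annotated genes. A region of replicate 4 did so at 107 tRNA genes, or 36.3% (30.8 to 42.0%), against 39.2% of all annotated genes. Which tRNA genes these were differed: 69 had a region in both lists, 62 in replicate 2 only, 38 in replicate 4 only and 126 in neither.

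The 117 genes shared 82 distinct candidates, since 31 of them lay near more than 1 tRNA gene and up to 3 genes shared a region. The signal, the authors' own value for each region in a unit not stated in the sources, ran from 15.9 to 188 over the 82, with quartiles of 18.3, 21.97 and 29.96. Over all candidates the quartiles were 17.9, 21.0 and 27.3. By rank in the pooled list, where 1 is the strongest, 3 of the 82 (3.66%) stood among the first 1872, a range that holds 6.51% of the list. The reproducible list is exactly these first 1872 regions by pooled signal, so these are the 3 reproducible peaks again. Membership thus marks a cutoff in pooled signal and does not by itself show that a given region was alike in both replicates. Another 16 (19.5%) stood between ranks 1873 and 5000, which hold 10.9% of the list, and 21 (25.6%) between ranks 20001 and 28750, which hold 30.4%. The weakest of the 3 reproducible peaks at tRNA genes had a signal of 57.5, and the strongest other tRNA candidate had 51.6, while in the whole list the weakest reproducible peak had 53.78 and the strongest other candidate 53.76.

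**Figure D1:**
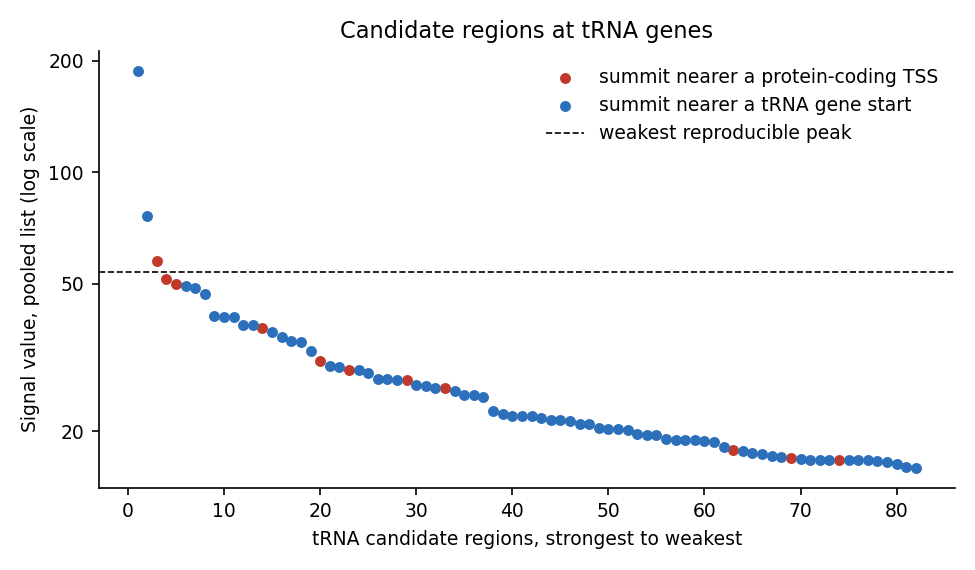
The signal of the 82 distinct candidate regions at tRNA genes in the pooled list (log axis), ordered from strongest to weakest, with colours for summits nearer a protein-coding transcription start site (TSS) or nearer a tRNA gene start, and a dashed line at the weakest reproducible peak. The strongest region, at 188, stood apart from the next at 76.0, and 3 of the 82 lay above the line.

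The strongest region lay upstream of *tRNA:Tyr-GTA-1-8*, a gene for the tRNA that carries tyrosine, with an intron. Its pooled signal was 188, rank 121, and its signal was 63.9 in replicate 2 (rank 158) and 124 in replicate 4 (rank 119). Both replicates thus placed it near the top of their lists. The region spans 3R:8669325-8669437, and its summit lay 196 bp upstream of the tRNA gene and 248 bp from the TSS of *CG8036*, the nearest coding gene. The 2 neighbouring tyrosine genes did not share it. At *tRNA:Tyr-GTA-1-6*, the strongest candidate had a signal of 26.1 and its summit lay 1 bp from a TSS of *CG8036*, and *tRNA:Tyr-GTA-1-7* had no candidate. The sequence of *tRNA:Tyr-GTA-1-8* occurs once among the annotated tRNA genes.

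The second region lay at *tRNA:His-GTG-1-3*, a histidine tRNA gene at 2R:12334995-12335066 on the minus strand. Its pooled signal was 76.0, rank 984, and it ranked 802 in replicate 2 (signal 31.3) and 1264 in replicate 4 (signal 43.7). The region spans 2R:12334965-12335360 and covers the gene, with the summit 97 bp upstream of it and 153 bp from the TSS of *CG8490*. The gene is 1 of 5 with the same sequence, and where reads from identical copies were placed was not stated.

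The third region was shared by *tRNA:Asp-GTC-1-4* with its neighbour *tRNA:Asp-GTC-1-5*, and the pair face opposite directions. Its pooled signal was 57.5, rank 1681, with rank 1352 in replicate 2 (signal 24.4) and rank 1738 in replicate 4 (signal 37.1). It spans 2L:8541847-8542242. The summit lay 422 bp upstream of *tRNA:Asp-GTC-1-4* and 284 bp downstream of the start of *tRNA:Asp-GTC-1-5*, past its end. It lay 102 bp from a TSS of *Sema1a*, which encodes a semaphorin, a guidance protein of growing axons, and was thus nearer that coding gene than either tRNA gene. DNA was sheared to 200 to 800 bp, so at these distances binding at the tRNA gene and at the coding promoter cannot be told apart.

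The next 5 regions missed the reproducible list by little in rank. *tRNA:Val-CAC-2-5*, an isolated valine tRNA gene, had a signal of 51.6 (pooled rank 1988; 1461 in replicate 2 and 2439 in replicate 4), with the summit 452 bp downstream of its start and 447 bp from the TSS of *Naam*, a nicotinamidase gene. *tRNA:Phe-GAA-1-2*, a phenylalanine tRNA gene, had a signal of 50.1 at rank 2092, ranked 6388 in replicate 2 and 1856 in replicate 4, and its summit lay 80 bp from a TSS of the ribosomal protein gene *RpL17*. In both, the summit was nearer the coding gene.

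The other 3 lay far from any coding TSS, and whether they lay inside a coding gene was not examined. *tRNA:Gln-TTG-2-1*, an isolated glutamine tRNA gene on X, had a signal of 49.3 at rank 2147, ranked 2337 in replicate 2 and 2381 in replicate 4, and its summit lay 275 bp upstream and 8009 bp from the nearest coding TSS. *tRNA:Pro-AGG-1-2*, a proline tRNA gene, had a signal of 48.6 at rank 2195, ranked 2305 in replicate 2 and 2795 in replicate 4, with the summit 274 bp upstream and 10351 bp from a coding TSS. *tRNA:Glu-TTC-1-5*, a glutamate tRNA gene, had a signal of 47.0 at rank 2315, ranked 2942 in replicate 2 and 1990 in replicate 4, 13168 bp from a coding TSS. These 3 regions had close ranks in the replicates and no coding promoter near.

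*tRNA:Ala-AGC-2-8*, an alanine tRNA gene and the last of the 10 strongest, differed between the libraries. Its pooled signal was 41.0 at rank 2975, but it ranked 27371 in replicate 2 (signal 6.48) and 1883 in replicate 4 (signal 35.6). The lowest signal in the list of replicate 2 was 6.16.

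The replicates gave only part of the 82 candidates alike. The summit lay in a region of replicate 2 for 46 of the 82 (56.1%, against 51.6% of all pooled regions), in a region of replicate 4 for 59 (72.0%, against 73.8%), and in regions of both for 31 (37.8%, against 33.7%). For 15 it lay in a region of replicate 2 only, for 28 of replicate 4 only and for 8 of neither. Of the 31 in both, 20 ranked better in replicate 2 and 11 in replicate 4. Spearman's rho of the ranks was 0.605 over these 31 regions, a description only, since all come from the same 2 libraries. The 2 libraries name different protocol documents, and a batch cannot be told apart from the replicate.

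**Figure D2:**
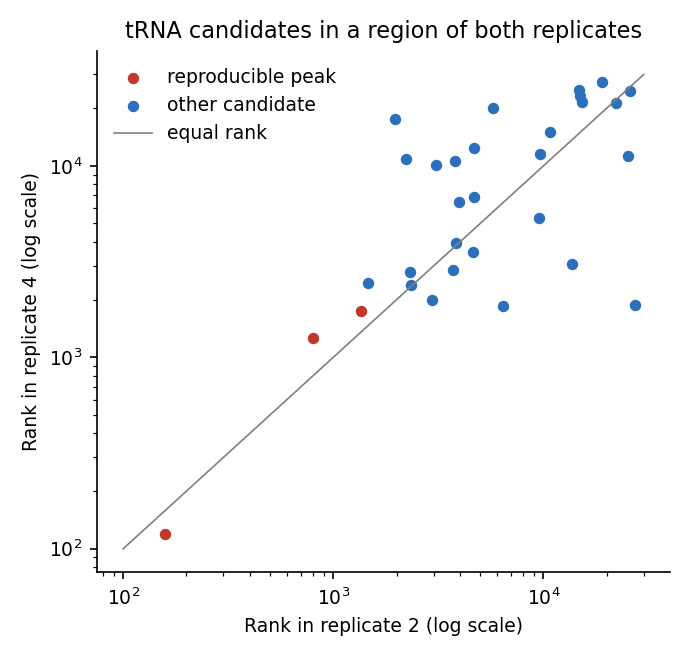
Rank in replicate 2 against rank in replicate 4 (log axes, 1 is the strongest) for the 31 tRNA candidates with a region in both lists, with reproducible peaks in red and a line of equal rank. The 3 reproducible peaks lay close to the line, and among the others 1 region ranked 27371 in replicate 2 and 1883 in replicate 4.

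Among the 31 candidates found in both lists, the regions that leaned most towards replicate 2 by difference in rank were those of 5 isolated genes. The region next in this order belonged to a clustered gene (14909 in replicate 2 and 23290 in replicate 4), so the cut at 5 does not set isolated genes apart. *tRNA:Leu-TAA-2-1*, a leucine tRNA gene, ranked 1955 in replicate 2 and 17500 in replicate 4, and *tRNA:Pro-CGG-2-3* ranked 2229 in replicate 2 and 10841 in replicate 4. The initiator methionine gene *tRNA:iMet-CAT-1-3* ranked 5766 in replicate 2 and 20125 in replicate 4, while *tRNA:Asp-GTC-1-11* and *tRNA:Gln-TTG-1-1* were low in both lists, at 14768 or beyond. Towards replicate 4 leaned *tRNA:Ala-AGC-2-8*, *tRNA:Gly-TCC-1-1* (25232 in replicate 2 and 11278 in replicate 4) and 1 region shared by *tRNA:Glu-CTC-1-1*, *tRNA:Glu-TTC-1-1* and *tRNA:Glu-TTC-1-2* (13678 in replicate 2 and 3081 in replicate 4).

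The summit was nearer a protein-coding TSS than any tRNA gene start in 11 of the 82 candidates, which belong to 15 genes, and nearer a tRNA gene start in 71. Every summit was chosen within 500 bp of a tRNA gene start, so 64 without a coding TSS within 500 bp could only be nearer the tRNA gene. Of the 18 with a coding TSS in that range, 11 were nearer it, so the 71 show no preference for tRNA genes. The 11 had a median signal of 29.3, with a highest of 57.5, and a median distance of 102 bp to the coding TSS. The 71 had a median signal of 21.5, with a highest of 188, and a median distance of 3005 bp to a coding TSS. Reproducible peaks made up 1 of the 11 and 2 of the 71. Beside those named above, the 11 included a region at *tRNA:Trp-CCA-2-2* and *tRNA:Gly-GCC-1-9* with a signal of 38.05, 70 bp from *CG30122*, and one at *tRNA:Gly-TCC-1-1* with a signal of 27.4, 184 bp from *CG31248*.

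All 3 reproducible peaks at tRNA genes lay close to a coding TSS. The same share over all reproducible peaks was not counted, so this cannot be called particular to tRNA genes. A coding TSS lay within 500 bp of the summit in 18 of the 82 (21.95%), against 6861 of all candidates (23.9%). The 18 had a median signal of 28.3 (16.7 to 188) and included all 3 reproducible peaks. The 64 others had a median of 21.3 (15.9 to 49.3) and included none.

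Counted by gene rather than by region, the share with a candidate was 21 of 33 (63.6%, 45.1 to 79.6%) where a coding TSS lay within 500 bp of the tRNA gene start. It was 20 of 47 (42.6%) at 501 to 1000 bp, 18 of 45 (40.0%) at 1001 to 2000 bp, 19 of 57 (33.3%) at 2001 to 5000 bp and 39 of 113 (34.5%, 25.8 to 44.0%) beyond that. Of the 4 genes with a reproducible peak, 3 were in the nearest class and 1 in the next. In replicate 4 the nearest class also had the highest share, 54.5%, against 29.8 to 40.0% in the others. In replicate 2 it did not: its share was 48.5%, and that of the class at 2001 to 5000 bp was 54.4%.

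Summits were spread around the tRNA gene start, while at coding genes they were densest just upstream. The median distance from summit to the nearest tRNA gene start was 200 bp. Of the 82, 25 (30.5%) lay within 100 bp of a start, a span that takes up 26.3% of the windows searched, and 13 (15.9%) lay inside a tRNA gene, which take up 10.03%. The region itself overlapped a tRNA gene in 47 cases (57.3%). In bins of 200 bp, the pooled list had 6.44 summits per 100 tRNA genes just upstream of the start and 10.8 just downstream, while its bins from 2000 bp upstream to 2000 bp downstream ranged from 4.75 to 10.8. Protein-coding genes had 19.5 summits per 100 genes in the bin just upstream, in a range from 4.81 to 19.5. The downstream bin of the tRNA genes held 12.5 summits per 100 genes in replicate 2 and 6.78 in replicate 4, while the median bin held 8.81 in replicate 2 and 6.61 in replicate 4.

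**Figure D3:**
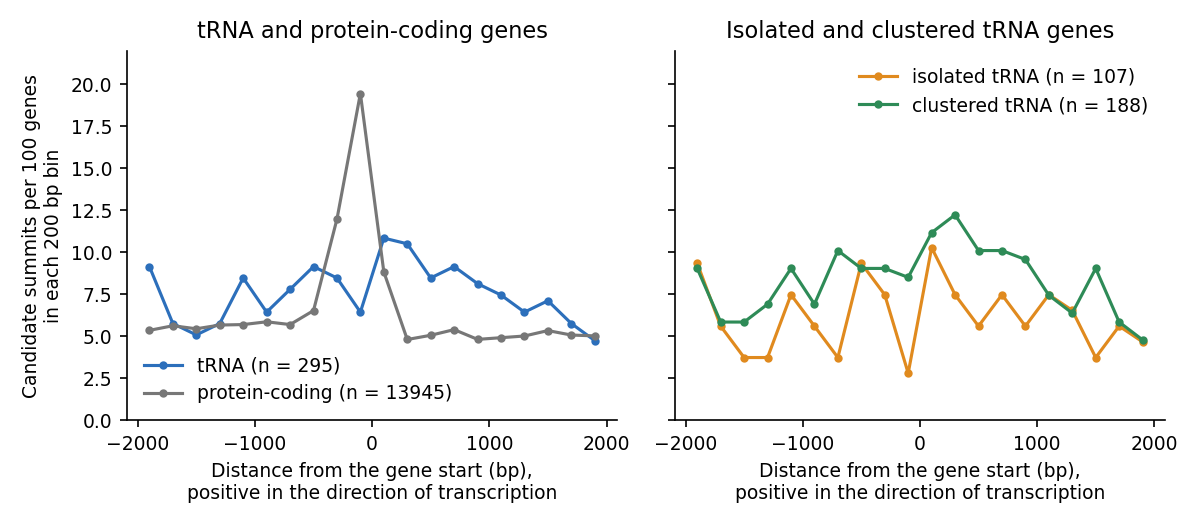
Candidate summits of the pooled list per 100 genes in each 200 bp bin, by distance from the gene start (bp, positive in the direction of transcription), for tRNA and protein-coding genes (left) and for isolated and clustered tRNA genes (right). tRNA genes stayed between 4.75 and 10.8 in every bin, while coding genes reached 19.5 just upstream of their start.

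A smaller share of isolated than of clustered tRNA genes had a candidate, by an amount that depended on the window and the arm. A gene was called isolated when no other tRNA gene started within 1000 bp, which held for 107 genes, while 188 were clustered. A candidate was found at 30 of the 107 isolated genes, or 28.0% (19.8 to 37.5%), against 87 of 188 clustered genes, or 46.3% (39.0 to 53.7%). In replicate 2 the shares were 36.4% of isolated and 48.9% of clustered genes, and in replicate 4 they were 29.9% of isolated and 39.9% of clustered genes. The difference, isolated minus clustered, was -12.5 points in replicate 2 and -9.99 points in replicate 4, or -11.2 ± 1.77 points (SD, n = 2). Both lists were matched to the same genes, so this SD covers the spread between the replicates and not the spread among genes or loci. With 2 replicates no exact test can give a p below 0.5, and none was made. None of the 107 isolated genes had a reproducible peak (0%, upper exact limit 3.39%), against 4 of the clustered genes (2.13%, 0.583 to 5.36%).

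**Figure D4:**
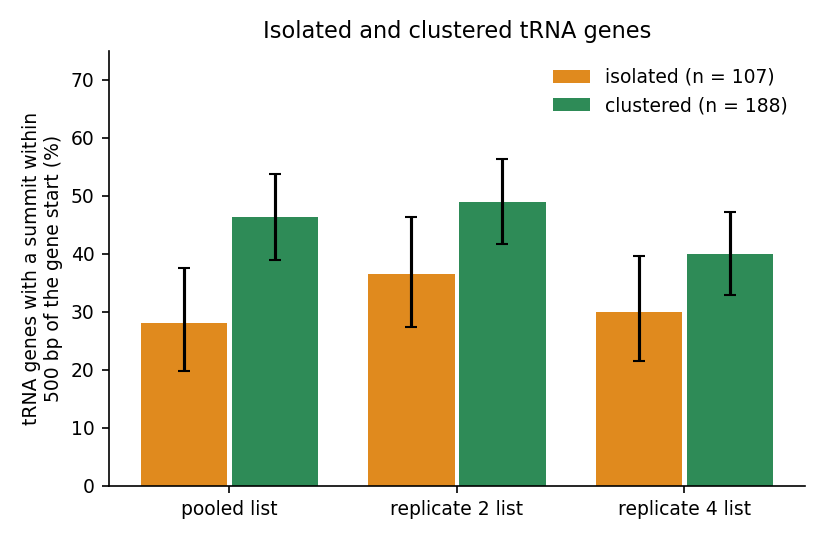
Share of isolated (n = 107) and clustered (n = 188) tRNA genes with a summit within 500 bp of the gene start in the pooled list and in the list of each replicate; bars start at 0 and error bars are 95% exact binomial intervals. In the pooled list 28.0% of isolated and 46.3% of clustered genes had one, and the isolated share was also the lower one in both replicate lists.

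Where a region was present, the median signal of both kinds of gene was close. It was 21.9 over the 30 candidates of isolated genes and 22.02 over the 52 of clustered genes. The strongest isolated gene, *tRNA:Val-CAC-2-5*, reached 51.6, and the strongest clustered gene 188. Clustered genes share regions, so they do not count independently. Per kb of the windows searched, with overlaps counted once, there were 0.327 candidate summits at isolated genes and 0.525 at clustered genes, against 0.215 over the arms. In replicate 2 these densities were 0.448 at isolated and 0.620 at clustered genes, and in replicate 4 they were 0.345 at isolated and 0.439 at clustered genes, against 0.224 over the arms in each list.

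The difference was small close to the gene. Where the region had to overlap the gene itself, 18.7% of isolated genes (11.8 to 27.4%) and 20.2% of clustered genes (14.7 to 26.7%) qualified. Within 250 bp the shares were 17.8% of isolated and 23.4% of clustered genes, and within 1000 bp they were 49.5% of isolated and 63.8% of clustered genes. Leaving out genes with a coding TSS within 500 bp of their start, a candidate was found at 25 of 99 isolated genes (25.3%) and 71 of 163 clustered genes (43.6%).

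The arms did not all show the same direction. Isolated genes had the lower share on 2L (5 of 21 isolated and 12 of 20 clustered), on 2R (7 of 28 isolated and 38 of 72 clustered) and on 3R (9 of 30 isolated and 29 of 49 clustered). They had the higher share on 3L (7 of 18 isolated and 8 of 31 clustered) and on X (2 of 10 isolated and 0 of 16 clustered, upper exact limit 20.6%).

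Counted by locus, with genes chained by gaps of at most 1000 bp, 30 of 107 single-gene loci (28.0%) and 41 of 70 loci of several genes (58.6%, 46.2 to 70.2%) had a candidate. A locus of several genes is longer and so offers more room for a summit. The 6 largest loci, of 5 to 7 genes, differed among themselves. On 2R, a locus of 5 isoleucine and 2 leucine tRNA genes at 2R:13430282-13432794 had a candidate at 6 of 7 genes, the strongest at 40.6 (rank 3036). A locus of 5 glutamate genes at 2R:19727460-19729353, counting *tRNA:Glu-CTC-5-1Psi*, a pseudogene by its symbol, had one at all 5. On 3R, a locus of 5 arginine genes and 1 asparagine gene at 3R:8139533-8141042 had one at all 6 genes, the strongest at 20.2 (rank 16060). These genes shared regions, and each locus just named had 3 distinct candidates. In contrast, a locus of 5 arginine and 2 serine genes at X:14014814-14017284 and a locus of 4 cysteine and 2 lysine genes at 3L:3095737-3097590 had none. In each of those 2 loci, 3 genes had a region in replicate 2 and none in replicate 4.

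By arm, the share with a candidate was 41.5% of 41 genes on 2L, 45.0% of 100 on 2R, 30.6% of 49 on 3L, 48.1% of 79 on 3R and 7.69% of 26 on X (0.946 to 25.1%). X had the lowest share in both replicates too, at 23.1% in replicate 2 and 7.69% in replicate 4, against 34.2 to 59.0% and 30.6 to 48.0% on the other arms. The share of all annotated genes on each arm was not counted, so this cannot be called particular to tRNA genes. Of the 26 genes on X, 7 stand in 1 locus and do not count independently. The 2 genes with a candidate on X were *tRNA:Phe-GAA-1-2* and *tRNA:Gln-TTG-2-1*, both among the 10 strongest.

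By amino acid, the families ranged widely, with few genes in each. A candidate was found at 9 of 14 aspartate genes (64.3%, 35.1 to 87.2%), 9 of 15 valine genes, 10 of 17 alanine genes and 6 of 10 asparagine genes. It was found at 8 of 26 arginine genes (30.8%, 14.3 to 51.8%), 5 of 19 lysine genes and 2 of 20 serine genes (interval 1.23 to 31.7%). None was found at the 7 cysteine genes (upper exact limit 41.0%), the 6 elongator methionine genes (45.9%) or the gene for selenocysteine. Of the 7 cysteine genes, 4 stand in 1 locus on 3L, so family and locus cannot be told apart there. The serine genes had a region at 8 of 20 in replicate 2 and at 3 in replicate 4, and the cysteine genes at 3 of 7 in replicate 2 and at none in replicate 4, so these low shares were not alike in both libraries. The strongest serine gene, *tRNA:Ser-AGA-2-4*, had a signal of 26.5, with its summit in a region of replicate 2 (rank 2124) and in none of replicate 4, although another region of replicate 4 (rank 8272) lay within 500 bp of the gene start. The summits at the strongest arginine gene, *tRNA:Arg-ACG-1-2* (27.5), at *tRNA:Lys-CTT-1-3* (26.1) and at *tRNA:Thr-AGT-1-4* (24.7) lay in a region of replicate 4 and in none of replicate 2. Another region of replicate 2 lay within 500 bp of the start of *tRNA:Arg-ACG-1-2* (rank 17947) and of *tRNA:Lys-CTT-1-3* (rank 28136), and none near *tRNA:Thr-AGT-1-4*. *tRNA:Asn-GTT-1-1* reached 32.9, with ranks 4689 in replicate 2 and 12443 in replicate 4, and *tRNA:Ile-AAT-1-7* and *tRNA:Leu-CAA-1-1* shared a region of 40.6.

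**Figure D5:**
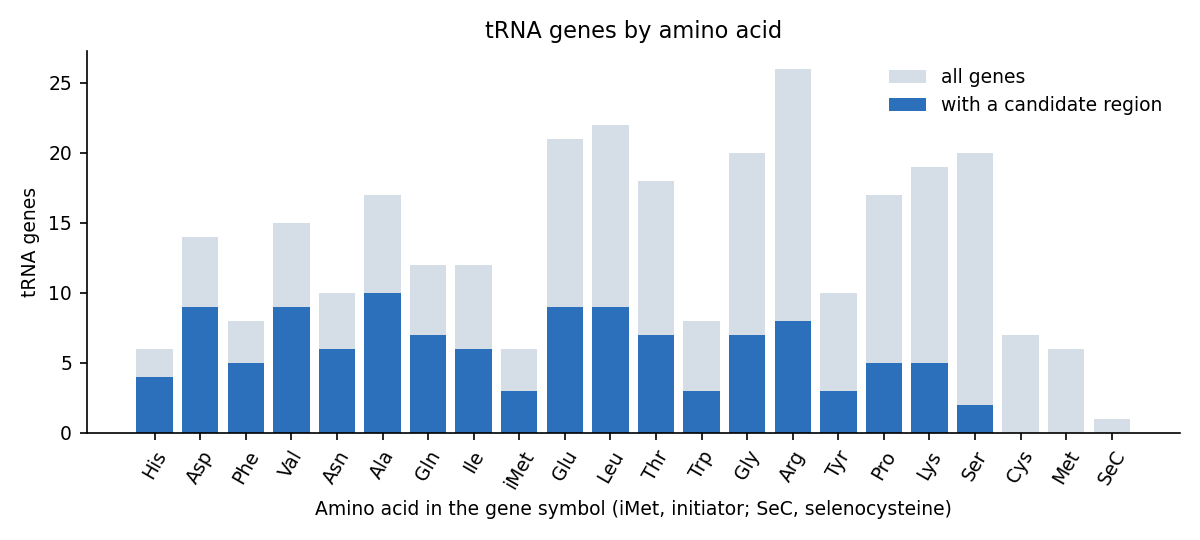
Number of tRNA genes by the amino acid in the gene symbol (pale bars, all genes; dark bars, those with a candidate region in the pooled list), ordered by the share with a candidate. Aspartate had 9 of 14, serine 2 of 20, and cysteine, elongator methionine and selenocysteine none.

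The B box letters and the run of T residues were found in most tRNA genes, with and without a candidate. The B box letters GTTCNANNC stood on the gene strand in 274 of 295 tRNA genes (92.9%): 106 of 117 with a candidate (90.6%, 83.8 to 95.2%) and 168 of 178 without (94.4%, 89.9 to 97.3%). Windows of 73 bp at all candidate summits held them on the plus strand in 1.08% of cases. The A box letters TNGCNNA stood in 59.0% (49.5 to 68.0%) of genes with a candidate and 69.1% (61.8 to 75.8%) of those without, and in 26.4% of such windows. A run of TTTT within the 30 bases after the gene was present in 94.9% of genes with a candidate and 95.5% of those without, against 24.3% of windows of 30 bp. *tRNA:Ala-AGC-2-8*, printed above without capitals, was the strongest of the 11 genes that had a candidate and no B box letters.

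Genes with a sequence of their own and genes in many copies both had candidates. A candidate was found at 23 of 57 genes whose sequence occurs once (40.4%), 18 of 58 with 2 to 4 copies (31.03%), 40 of 111 with 5 to 9 copies (36.04%) and 36 of 69 with 10 or more (52.2%, 39.8 to 64.4%).

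Protein-coding genes that act in making tRNAs had a candidate in most cases. These lists were chosen with earlier results of these data known and were not tested. Of 16 genes of the polymerase III machinery, 11 had a candidate (68.8%, 41.3 to 89.0%) and 4 a reproducible peak (interval 7.27 to 52.4%), against the 43.1% and 8.9% of all protein-coding genes given above. Among them were *Bdp1* (signal 205, rank 102) and *Brf* (201, rank 108), both subunits of TFIIIB, and the polymerase subunit gene *Polr3E* (91.7, rank 670). *Bdp1* ranked 85 in replicate 2 and 117 in replicate 4, and *Brf* ranked 99 in replicate 2 and 115 in replicate 4. In these 3 the summit was nearer the TSS of another coding gene: *CG6565* at 15 bp for *Bdp1*, *sds22* at 49 bp for *Brf* and *CG10584* at 158 bp for *Polr3E*.

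Of 32 genes for tRNA processing and modification, 24 had a candidate (75%, 56.6 to 88.5%) and 9 a reproducible peak (28.1%, 13.7 to 46.7%). Over all protein-coding genes these shares were 43.1% with a candidate and 8.9% with a reproducible peak. This list too was chosen with earlier results known and was not tested. The strongest were *Elp5* (signal 145, rank 228), a subunit of the Elongator complex that modifies the wobble base, and *Trmt6* (116, rank 395), a subunit of a tRNA methyltransferase. The others included *Rpp14a* (80.4), a subunit of RNase P, which trims the leading end, *Elp4* (69.5), *RNaseZ* (68.6), which trims the trailing end, *Trmt61* (63.4), *La* (62.7), which binds the new transcript's tail, and *Elp6* (54.8). At *Elp6* the TSS of *Dic1*, at 223 bp, was nearer the summit.

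Other RNA genes, listed by symbol as polymerase III transcripts, had a candidate in 3 of 104 cases, against the 39.5% of all annotated genes given above. Which polymerase transcribes each listed gene was not checked here. Of the 104, 96 are 5S rRNA genes, repeated copies on 1 arm, and none of these had one (upper exact limit 3.77%), with the placement of repeated reads unknown. Without them the count was 3 of 8 (37.5%, 8.52 to 75.5%), with a reproducible peak at 2. No candidate was found at the RNA genes of RNase P, RNase MRP and the signal recognition particle. The 3 were genes of U6, a spliceosomal RNA made by polymerase III from an upstream promoter. *snRNA:U6:96Ab* and *snRNA:U6:96Ac* shared a reproducible peak of 66.4 at 3R:24556875-24557270, rank 1298, ranked 1066 in replicate 2 and 1949 in replicate 4, and 8056 bp from the nearest coding TSS. *snRNA:U6:96Aa* had a candidate of 19.8. The isolated gene *tRNA:Asp-GTC-1-11*, at 3R:24555302-24555373, lies beside these genes and had a candidate of 22.3.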

How the data were processed

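Peak lists of 2 ChIP-seq libraries, biological replicates 2 and 4 of 1 group, were used on dm6. The authors deposited a list per replicate, a pooled list and a list of reproducible (IDR) peaks, and per the labels the first 3 hold peaks and background. The signal in the deposited lists is the authors' own value per region, on a scale that is not stated, and was compared only within a list. For the aligner, the peak caller, the reproducibility threshold and the placement of repeated reads, details were not given in the sources used here. Read depth is unknown, and the precision from read counts with it. Lists on dm3 and the control library were not used, and no coordinates were converted.

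Genes came from Ensembl release 115 on the same assembly, and sequences from its RefSeq FASTA. A gene start was matched to the strongest region with a summit within 500 bp, and a pooled region counted as found in a replicate when the replicate's list had a region over its summit. Coding TSSs are those of all protein-coding transcripts. Isolated genes had no other tRNA gene start within 1000 bp. Motifs were searched on the gene strand only. Shares have 95% exact binomial (Clopper-Pearson) intervals, and no test was run, since the design has 1 group. Named genes are those with a reproducible peak, the 10 strongest, the strongest of each amino acid, the 5 leaning most towards each replicate, the 3 strongest isolated genes and list members with a reproducible peak, except some that are not reported here. Other genes are named where they share a locus or complete a short count and were chosen after their values were seen. The members and lists were chosen with earlier results of these data known. Nothing in the labels says whether the replicates come from separate collections of embryos. Alternatives were other windows, overlap with the gene, each replicate alone, stronger peaks, identical sequences counted once, other definitions of a cluster, and, added after seeing the data, each arm left out and the pseudogenes left out. The matching was tested on simulated data. Python 3.11.15, numpy 2.4.6, pandas 2.3.3, scipy 1.17.1 and matplotlib 3.10.9 were used.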

Additional observations from a re-analysis of the deposited data

How the results depend on the processing

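The sign of the isolated minus clustered difference in the share with a candidate, -18.2 points, was kept under every alternative run, but its size moved by more than the spread between replicates, except with clusters set at 2000 bp, without the pseudogenes or without genes near a coding TSS. It was -5.65 points within 250 bp, -14.3 within 1000 bp, -1.52 where the region had to overlap the gene, -14.5 and -20.3 with clusters set at 500 and 5000 bp, and -30.5 by locus. Without 1 arm at a time, chosen after seeing the data, it was -21.7 without X, -13.1 without 2R, -15.6 without 2L, -24.5 without 3L and -14.5 without 3R. With 1 replicate list in place of the pooled list, it ranged from -12.5 to -9.99 points, the genes with a candidate from 107 to 131, the candidates nearer a coding TSS from 6 to 9, and the median signal from 9.27 to 18.2, on the scale of each list. Within 250 bp, 63 genes had a candidate, 2 a reproducible peak, and 4 candidates were nearer a coding TSS. Within 1000 bp, 173 genes had a candidate, 9 genes had a reproducible peak and 19 candidates were nearer a coding TSS. With overlap of the gene, these counts were 58 genes, 1 peak and 1 candidate. The stronger part of the peaks left 1 gene, and counting identical sequences once left 52 with a candidate. Of 28 named genes, 16 kept the same region within 250 bp, 11 had none and 1 had another, and within 1000 bp 27 kept it and 1 had another. The causes of these moves were not tested beyond the fewer or more positions each setting admits. No paired analysis was possible because there is 1 group of samples, so that samples cannot be paired across groups; the isolated minus clustered difference was taken within each library. The unknown depth limits all shares.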
